A study of Mus musculus with 16 samples.

Results

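The genes described here are 8 genes of cholesterol metabolism, taken by name from the 23356 genes of the deposited expression table: *Hmgcs1*, *Idi1*, *Fdft1*, *Sqle* and *Cyp51*, which encode enzymes of cholesterol synthesis, *Insig1* and *Srebf2*, which regulate it, and *Ch25h*, which encodes cholesterol 25-hydroxylase. Each name matched 1 row of the table. Expression was measured by RNA-seq in bone marrow-derived dendritic cells (BMDCs), grown for 6 days from mouse bone marrow with 10 ng/ml GM-CSF and 10 ng/ml IL-4. The cells came from wild-type C57BL/6 mice and from *Tmem173*-/- mice, which lack the cyclic dinucleotide sensor STING, *Irf1*-/- mice, which lack the transcription factor IRF1, and *Irf3/7*-/- mice, which lack both IRF3 and IRF7. The labels give the C57BL/6 background for every genotype, and the methods of the study give sex-matched mice of 6 to 12 weeks. Cells were left untreated or were treated with the bacterial second messenger c-di-GMP, a STING ligand, for 18 h, at 25 μg/ml according to the labels; the legends of the study give another dose. There were 2 samples for each of the 8 conditions, 16 in all.

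Cells make cholesterol from acetyl-CoA in a long series of steps, in which the early enzymes lead through mevalonate to squalene and the later ones turn squalene into lanosterol and then into cholesterol. The transcription factor SREBP2, encoded by *Srebf2*, switches on most of these genes, and INSIG proteins hold its precursor in the endoplasmic reticulum when sterols are plentiful. The oxysterol 25-hydroxycholesterol, the product of CH25H, also holds the precursor back, and *Ch25h* is known as a gene that interferons and microbial ligands raise in macrophages and dendritic cells. SREBP2 is controlled mainly by the processing of its protein, which RNA-seq does not measure.

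The authors combined the replicates of each condition into 1 FPKM value (fragment counts scaled to transcript length and to library size) with a lower and an upper bound. The bounds stand below in brackets. They lay a median of 25.2% to 25.7% away from the value, over 4710 genes that reached 10 FPKM in all 8 conditions. There is therefore no spread between replicates, no standard deviation and no test. Between a pair of conditions, a call of higher or lower required that a gene's FPKM + 0.1 differ by more than 2-fold, that the authors' intervals be apart, that it reach 1 FPKM in at least 1 condition, and that its status be OK in both. All 8 genes met the last 2 conditions in all 10 comparisons. Changes are given as log2 ratios of FPKM + 0.1. FPKM values do not show how deeply a sample was sequenced.

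In the coordinates of the table, which overlap the GRCm38 annotation (GENCODE M21) for 21454 of 21681 genes found under 1 gene of that name, *Hmgcs1* lies at chr13:119690461-119708077, *Idi1* at chr13:8885605-8892396, *Sqle* at chr15:59315091-59331193 and *Srebf2* at chr15:82147268-82204960. *Cyp51* lies at chr5:4080673-4104697, *Insig1* at chr5:28071411-28078662 and *Ch25h* at chr19:34473783-34475135. *Fdft1* is listed at chr14:63122461-63177793, an interval that it shares with *Ctsb*, the abundant lysosomal protease cathepsin B. The listed span of *Srebf2* also holds the microRNA gene *Mir33*. All 8 are protein-coding genes.

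RefSeq promoter sequences were found for 6 of the 8 genes, and *Fdft1* and *Sqle* are named only. Stretches upstream of the start are shown for *Hmgcs1* and *Srebf2*, which hold the core of a sterol regulatory element, the site that SREBP2 binds, and for *Ch25h*, which does not and whose level went the other way from that of *Srebf2*. They are written 5′ to 3′ on the strand of the gene, at chr13:119690101-119690350 on the + strand, chr15:82147019-82147180 on the + strand and chr19:34475165-34475398 on the - strand of GRCm38.p6, and end before the first annotated start in RefSeq or GENCODE. Capitals mark matches, on either strand, to TCACCCCA, the element's core, or to CCAAT, the box bound by NF-Y, which acts together with SREBPs.
Hmgcs1: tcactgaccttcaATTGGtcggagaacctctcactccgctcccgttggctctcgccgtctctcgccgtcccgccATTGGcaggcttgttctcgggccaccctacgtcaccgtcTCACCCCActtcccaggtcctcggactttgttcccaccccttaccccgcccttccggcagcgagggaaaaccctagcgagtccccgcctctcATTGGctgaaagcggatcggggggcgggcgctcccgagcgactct
Srebf2: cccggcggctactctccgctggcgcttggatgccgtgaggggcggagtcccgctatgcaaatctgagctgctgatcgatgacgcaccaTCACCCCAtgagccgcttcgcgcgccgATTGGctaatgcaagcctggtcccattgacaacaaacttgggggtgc
Ch25h: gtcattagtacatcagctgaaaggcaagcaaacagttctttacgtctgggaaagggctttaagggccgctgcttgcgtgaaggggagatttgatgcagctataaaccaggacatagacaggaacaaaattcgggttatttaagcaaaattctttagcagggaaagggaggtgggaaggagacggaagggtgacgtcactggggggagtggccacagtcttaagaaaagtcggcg
The motifs were searched on both strands in the 250 bases before the start, and were chosen after these sequences had been read. TCACCCCA was found in 2 of the 6 promoters, *Hmgcs1* and *Srebf2*, and in 1.34% of all 32851 RefSeq promoters. CCAAT was found in 5 of the 6, in 3 places for *Hmgcs1*, in 2 for *Idi1*, and in 1 each for *Cyp51*, *Insig1* and *Srebf2*, but not in that of *Ch25h*, and in 33.8% of all promoters. GAAANNGAAA, a form of the interferon-stimulated response element, and TTCNNNGAA, the gamma-activated site, were found in none of the 6 and in 2.98% and 7.02% of all promoters. A match of letters is not a measured binding site.

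*Sqle*, which encodes squalene epoxidase, the enzyme that takes up squalene and a rate-limiting step of the later pathway, changed most among the 5 synthesis enzymes. Its level was 12.7 FPKM (9.32 to 16.0) in untreated and 4.67 FPKM (3.36 to 5.99) in treated wild-type BMDCs. In *Irf1*-/- BMDCs it was 14.3 FPKM (10.5 to 18.1) untreated and 5.73 FPKM (4.11 to 7.28) treated. Both pairs of intervals were apart, with treated cells the lower, and *Sqle* fell by 1.42 on the log2 scale in wild-type and by 1.31 in *Irf1*-/- BMDCs, to 0.373 and 0.404 of the untreated level. In *Irf3/7*-/- BMDCs it was 11.6 FPKM (8.55 to 14.6) untreated and 9.79 FPKM (7.18 to 12.4) treated, a log2 change of -0.25 with overlapping intervals. The ratios that these intervals allow ran from -1.03 to 0.53 on the log2 scale, and include a fall of just over 2-fold. They overlap the ratios allowed in wild-type BMDCs, from -2.26 to -0.64. In *Tmem173*-/- BMDCs *Sqle* was 29.7 FPKM (22.4 to 37.0) untreated and 29.0 FPKM (21.8 to 36.2) treated, above every other condition, and the change was -0.03. Ordered by level, the conditions ran from treated wild-type through treated *Irf1*-/- and treated *Irf3/7*-/- to the untreated cells of these genotypes, and the first gap between neighbouring intervals came below the *Tmem173*-/- conditions.

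*Cyp51*, which encodes the lanosterol demethylase that acts on the first sterol of the pathway, was not called in any response. It stood at 11.4 FPKM (8.34 to 14.5) untreated and 7.90 FPKM (5.86 to 9.90) treated in wild-type BMDCs, and at 9.34 and 6.12 FPKM in *Irf1*-/- BMDCs. The log2 changes were -0.53 and -0.60, and the intervals overlapped in each. In *Irf3/7*-/- BMDCs it was 8.56 and 8.22 FPKM and in *Tmem173*-/- BMDCs 22.0 (17.0 to 27.0) and 22.9 FPKM (17.5 to 28.2), untreated and treated. Only the *Tmem173*-/- conditions were separated from their neighbours in the order of levels.

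The 3 early enzymes among the 8 were not called in any comparison. *Hmgcs1*, which encodes the HMG-CoA synthase that makes the substrate of HMG-CoA reductase, was at 19.5 FPKM in both untreated (14.4 to 24.2) and treated (14.6 to 24.3) wild-type BMDCs. It was at 19.9 and 21.5 FPKM in *Irf1*-/-, at 17.8 and 21.6 FPKM in *Irf3/7*-/- and at 27.7 and 34.3 FPKM in *Tmem173*-/- BMDCs, untreated and treated. *Idi1*, which encodes the isomerase that makes dimethylallyl diphosphate, stood at 31.2 and 35.4 FPKM in wild-type, 31.4 and 36.7 in *Irf1*-/-, 22.7 and 32.1 in *Irf3/7*-/- and 40.0 and 47.6 in *Tmem173*-/- BMDCs. For both genes each pair of neighbours in the order of the 8 levels had overlapping intervals, with the *Tmem173*-/- conditions at the top. *Fdft1*, which encodes squalene synthase, was listed at 10.8 and 9.75 FPKM in wild-type, 9.89 and 13.0 in *Irf1*-/-, 9.15 and 8.37 in *Irf3/7*-/- and 17.2 and 15.0 in *Tmem173*-/- BMDCs. Its intervals were too wide to separate any pair of conditions, from 0 to 37.9 FPKM in treated wild-type BMDCs for example, so its values carry no call. *Ctsb*, listed at the same position, was at 224 and 609 FPKM in untreated and treated wild-type BMDCs.

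**Figure D1:**
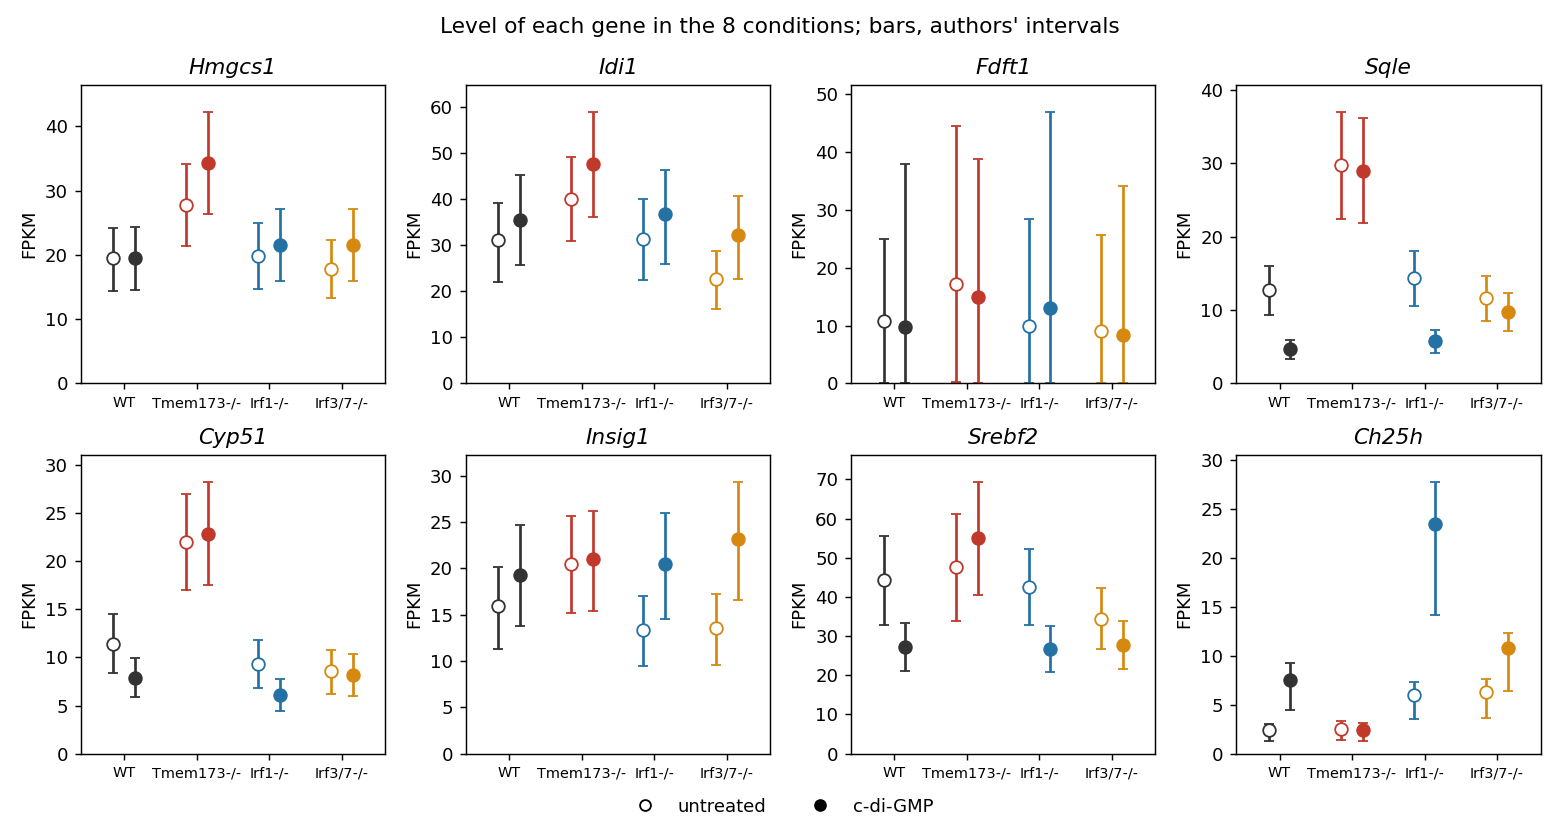
FPKM of each of the 8 genes (vertical axes, linear, from 0, 1 panel a gene) in the 4 genotypes, untreated (open) or treated with c-di-GMP (filled). Points are the authors' values and bars their intervals. *Sqle* is at 4.67 FPKM in treated wild-type and 29.0 FPKM in treated *Tmem173*-/- BMDCs, *Ch25h* is highest at 23.5 FPKM in treated *Irf1*-/- BMDCs, and the bars of *Fdft1* reach down to or near 0.

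Of the regulators, *Srebf2* was lower and *Insig1* higher in the treated cells of the 3 responding genotypes, and neither was called. *Srebf2* stood at 44.2 FPKM (32.9 to 55.6) untreated and 27.2 FPKM (21.1 to 33.3) treated in wild-type, and at 42.5 (32.8 to 52.2) and 26.7 FPKM (20.7 to 32.7) in *Irf1*-/- BMDCs. The log2 changes of -0.70 and -0.67 stayed under 2-fold. The intervals overlapped narrowly in wild-type and just missed each other in *Irf1*-/- BMDCs. It was at 34.5 and 27.7 FPKM in *Irf3/7*-/- BMDCs, a change of -0.31, and at 47.6 and 54.9 FPKM in *Tmem173*-/- BMDCs, a change of 0.21. *Insig1*, whose product retains the SREBP precursor, was at 15.9 and 19.3 FPKM in wild-type, 13.4 and 20.5 in *Irf1*-/-, 13.5 and 23.2 in *Irf3/7*-/- and 20.4 and 21.0 in *Tmem173*-/- BMDCs. Its log2 changes were 0.27, 0.61, 0.77 and 0.04, all with overlapping intervals. *Insig1* had the narrowest range of the 8 genes, 1.73-fold between its lowest and highest condition, and all neighbours in the order of levels of *Insig1* and of *Srebf2* overlapped.

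*Ch25h* had the widest range of the 8, 9.90-fold. It was at 2.37 FPKM (1.26 to 3.06) in untreated and 7.54 FPKM (4.44 to 9.24) in treated wild-type BMDCs, and rose by 1.63 on the log2 scale, 3.09-fold. In *Irf1*-/- BMDCs it was at 5.96 FPKM (3.50 to 7.35) untreated and 23.5 FPKM (14.1 to 27.7) treated, a rise of 1.96, or 3.89-fold. In *Irf3/7*-/- BMDCs it was at 6.24 FPKM (3.65 to 7.65) and 10.7 FPKM (6.38 to 12.3), a change of 0.78 with overlapping intervals. These intervals allow log2 ratios from -0.26 to 1.75, which include a rise as large as that in wild-type BMDCs. In *Tmem173*-/- BMDCs it was at 2.49 FPKM (1.35 to 3.32) and 2.46 FPKM (1.29 to 3.15), a change of -0.02. The order of levels fell into 3 steps: untreated wild-type and both *Tmem173*-/- conditions, then untreated *Irf1*-/-, untreated *Irf3/7*-/-, treated wild-type and treated *Irf3/7*-/-, and then treated *Irf1*-/- alone. Intervals of neighbours overlapped within a step and were apart between steps.

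Read as counts, c-di-GMP raised *Ch25h* and lowered *Sqle* in wild-type BMDCs, 1 higher and 1 lower of the 8 genes, where 10.5% of the 11201 genes tested were called higher and 9.96% lower. The same genes were called the same way in *Irf1*-/- BMDCs, against 9.67% higher and 7.81% lower of 11164 genes. None of the 8 was called in *Irf3/7*-/- BMDCs, where 10.2% and 7.68% of 11283 genes were called higher and lower. None was called in *Tmem173*-/- BMDCs, where hardly any gene was, 0.046% higher and 0.0092% lower of 10867. With 1 gene called in a direction, the shares of the 8 are near those of all genes. Whether the changes within *Irf3/7*-/- BMDCs differed from those within wild-type BMDCs was not tested, since no replicate values were used.

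The treated knockouts were then set against treated wild-type BMDCs, and these 3 comparisons share the treated wild-type condition. In *Tmem173*-/- BMDCs 3 of the 8 genes were called higher, against 12.9% of 11318 genes, and 1 lower, against 13.5%. *Sqle* was 6.10-fold higher (log2 2.61), *Cyp51* 2.87-fold (log2 1.52) and *Srebf2* 2.02-fold (log2 1.01). The *Srebf2* call rests on its nearness to the threshold and was lost with a pseudocount of 1 FPKM (log2 0.99) and with the columns centred on their medians (log2 0.96). *Ch25h* was lower by a log2 of -1.58, so that treated wild-type BMDCs had 2.99 times the level of treated *Tmem173*-/- BMDCs. *Hmgcs1* was 1.75-fold higher (log2 0.81) with intervals apart, below the fold required for a call. In *Irf1*-/- BMDCs 1 of the 8, *Ch25h*, was called higher (log2 1.63, 3.09-fold), where 2.65% of 11079 genes were, and none was called lower, where 4.91% were. In *Irf3/7*-/- BMDCs 1 of the 8, *Sqle*, was called higher (log2 1.05, 2.07-fold), where 4.61% of 11209 genes were, and none lower, where 2.69% were. The *Sqle* call was lost with a pseudocount of 1 FPKM (log2 0.93). *Ch25h* stood at a log2 of 0.51 in this comparison, not called.

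The untreated knockouts already differed from untreated wild-type BMDCs. In untreated *Tmem173*-/- BMDCs all 8 genes had the higher value and 1, *Sqle*, was called (log2 1.22, 2.33-fold), against 5.04% of 11101 genes called higher and 5.95% called lower. *Cyp51* was 1.92-fold higher (log2 0.94) with intervals apart, just under the fold for a call. The median log2 difference of the 8 genes was 0.43, beside 0.01 over all genes tested. In untreated *Irf1*-/- BMDCs *Ch25h* was called higher (log2 1.29, 2.45-fold), where 1.26% of 11017 genes were called higher and 3.52% lower. In untreated *Irf3/7*-/- BMDCs *Ch25h* was also called higher (log2 1.36, 2.56-fold), where 1.17% of 11004 genes were called higher and 0.863% lower. The other 7 genes had log2 differences between -0.29 and 0.17 in untreated *Irf1*-/- and between -0.45 and -0.13 in untreated *Irf3/7*-/- BMDCs, none of them called. These comparisons share the untreated wild-type condition.

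**Figure D2:**
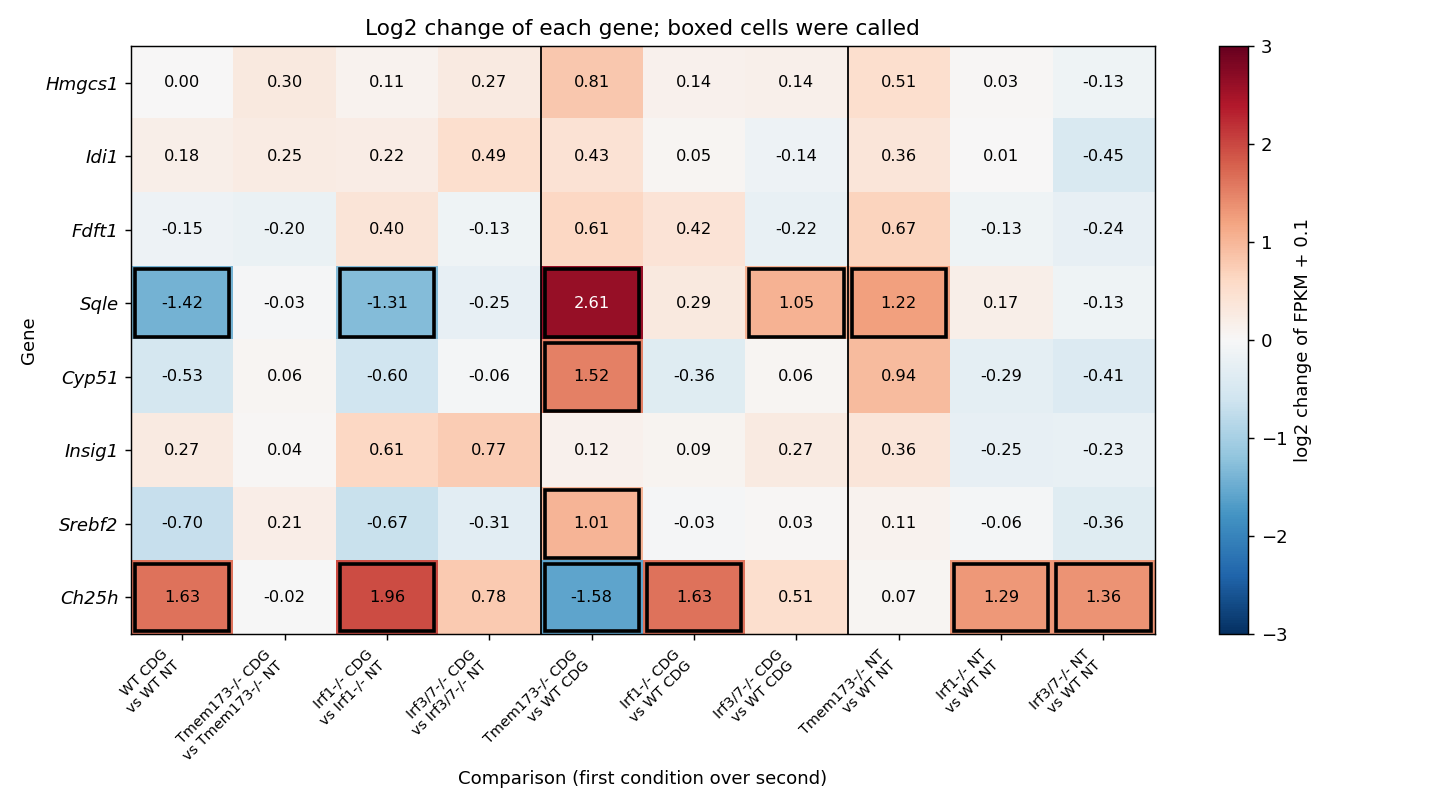
Log2 change of FPKM + 0.1 for the 8 genes (rows) in the 10 comparisons (columns, the first condition over the second), with the value printed in each cell, red for higher and blue for lower. Boxed cells were called. *Sqle* is boxed in 5 columns and *Ch25h* in 6, with opposite signs in the wild-type and *Irf1*-/- responses and in the treated *Tmem173*-/- comparison.

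Over the 8 conditions, *Sqle*, *Cyp51* and *Srebf2* ran together and *Ch25h* ran against them. Pearson's r of log2(FPKM + 0.1) was 0.91 between *Sqle* and *Cyp51*, 0.91 between *Sqle* and *Srebf2*, and 0.88 between *Cyp51* and *Srebf2*. It was -0.88 between *Ch25h* and *Srebf2*, -0.85 between *Ch25h* and *Cyp51* and -0.78 between *Ch25h* and *Sqle*. *Hmgcs1* and *Idi1* had 0.86 with each other, whereas *Insig1* had -0.01 with *Sqle* and -0.21 with *Srebf2*. These are descriptions over 8 points that share genotypes and a normalization. By the same measure, among 7382 genes with the status OK throughout and at least 10 FPKM in some condition, those most like *Ch25h* were *1700088E04Rik* (0.98), *Tex261* (0.97), *Micall1* (0.97), *Endod1* (0.96) and *Mllt11* (0.95). Those most like *Hmgcs1* were *Lonrf3* (0.96), *Jhdm1d* (0.95), *Slc35e1* (0.95) and *Ptpn12* (0.94). They were picked as the highest of many values over few points. Pearson's r leaves out the size of a change, and *Tex261*, for example, ran only from 35.5 to 42.9 FPKM over the 8 conditions.

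The synthesis pathway was read from 20 of its enzymes, of which all were tested. In the wild-type response 3 were called lower and 1 higher. Of all genes tested, 9.96% were called lower and 10.5% higher, so these counts are near those shares. The median log2 change of the enzymes was -0.32, beside 0.00 over all genes tested. Besides *Sqle*, the enzymes called lower were *Dhcr7* (log2 -2.07, from 9.30 to 2.13 FPKM), which reduces a double bond in the last steps, and *Lbr* (-1.28, from 20.9 to 8.57 FPKM), the lamin B receptor, which also is a sterol reductase. The enzyme called higher was *Pmvk* (1.47, from 22.8 to 63.5 FPKM), the phosphomevalonate kinase of the early pathway. The pathway order separated them: of the 9 enzymes up to squalene, 7 had a positive change and 1 was called higher, and of the 11 from squalene on, 10 had a negative change and 3 were called lower. The medians were 0.29 and -0.52. This division was made after the values had been seen, and is a description. The counts of signs include 2 enzymes with wide intervals whose listed position is shared with another gene. These are *Fdft1* and, among the late enzymes, *Tm7sf2*, at 0.457 to 4.62 FPKM in treated wild-type BMDCs.

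In *Irf1*-/- BMDCs the same division gave 7 positive changes of 9 early enzymes and 10 negative of 11 late ones, with medians of 0.33 and -0.55. *Pmvk* (1.48) and *Acat2* (1.15), the thiolase at the head of the pathway, were called higher and *Sqle* and *Dhcr7* (-2.28) lower. Of all genes tested in that response, 9.67% were called higher and 7.81% lower. In *Irf3/7*-/- BMDCs 8 of the 11 late enzymes had a negative change, with a median of -0.25. Only *Dhcr7* (-2.00) was called lower there and *Pmvk* (1.27) higher, where 7.68% and 10.2% of all genes were. *Lbr*, like *Sqle*, stayed near its untreated level there, at 22.7 and 20.0 FPKM (log2 -0.18), and was higher than in treated wild-type BMDCs (log2 1.21). *Acat2* was lower than in treated wild-type BMDCs (log2 -1.16, 2.96 against 6.76 FPKM). In that comparison 2 of the 20 enzymes were called higher and 1 lower, where 4.61% and 2.69% of all genes were. No enzyme was called between treated *Irf1*-/- and treated wild-type BMDCs, where 2.65% of all genes were called higher and 4.91% lower. None was called in the response of *Tmem173*-/- BMDCs, where 0.046% were called higher and 0.0092% lower.

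**Figure D3:**
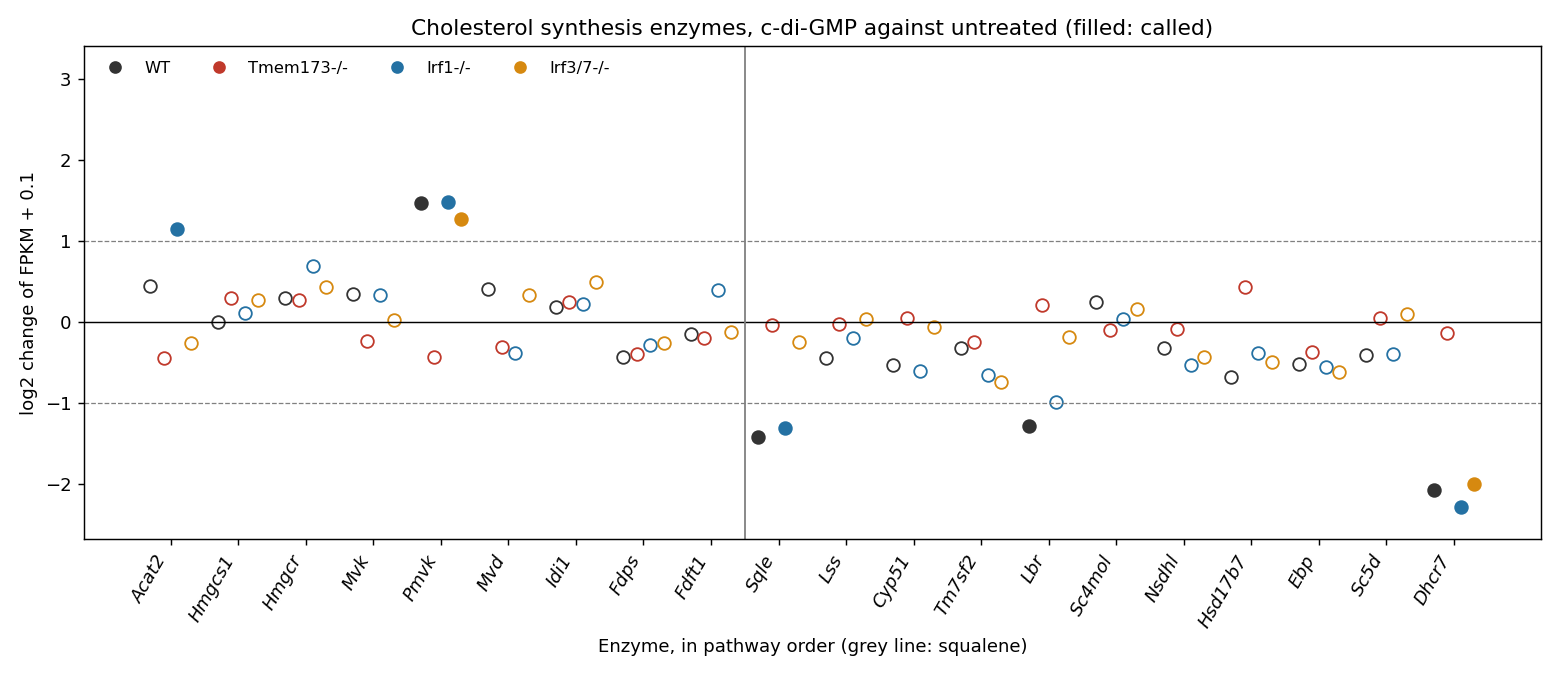
Log2 change of FPKM + 0.1 between c-di-GMP-treated and untreated BMDCs (vertical axis) for 20 cholesterol synthesis enzymes in pathway order, colored by genotype. Filled points were called, dashed lines mark 2-fold, and the grey line stands at squalene. To its right, 10 of 11 wild-type points lie below 0, the lowest of them *Dhcr7*, at -2.07; to its left *Pmvk* stands at 1.47.

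Treated *Tmem173*-/- BMDCs had 7 of the 20 enzymes called higher than treated wild-type BMDCs and 1 lower. Of all genes tested, 12.9% were called higher and 13.5% lower. The median log2 difference of the enzymes was 0.65, beside 0.02 over all genes tested. Of these 20, *Sqle* had the largest difference. *Cyp51*, *Dhcr7* (1.69), *Lbr* (1.59), *Hsd17b7* (1.31), *Fdps* (1.11), the synthase of farnesyl diphosphate, and *Sc5d* (1.06) were the others, and *Pmvk* (-1.53) was the enzyme called lower. All 11 late enzymes had the higher value in treated *Tmem173*-/- BMDCs. In untreated cells the median was 0.46, beside 0.01 over all genes. There 4 enzymes were called higher and none lower, where 5.04% and 5.95% of all genes were. The 4 enzymes were *Sqle*, *Sc4mol* (1.12), the sterol C4 methyl oxidase, *Fdps* (1.08) and *Mvd* (1.06). *Dhcr7* and *Lbr*, by contrast, stood at -0.25 and 0.10 untreated. No enzyme was called in untreated *Irf1*-/- or *Irf3/7*-/- BMDCs against wild-type, where 0.863% to 3.52% of all genes were called in a direction.

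**Figure D4:**
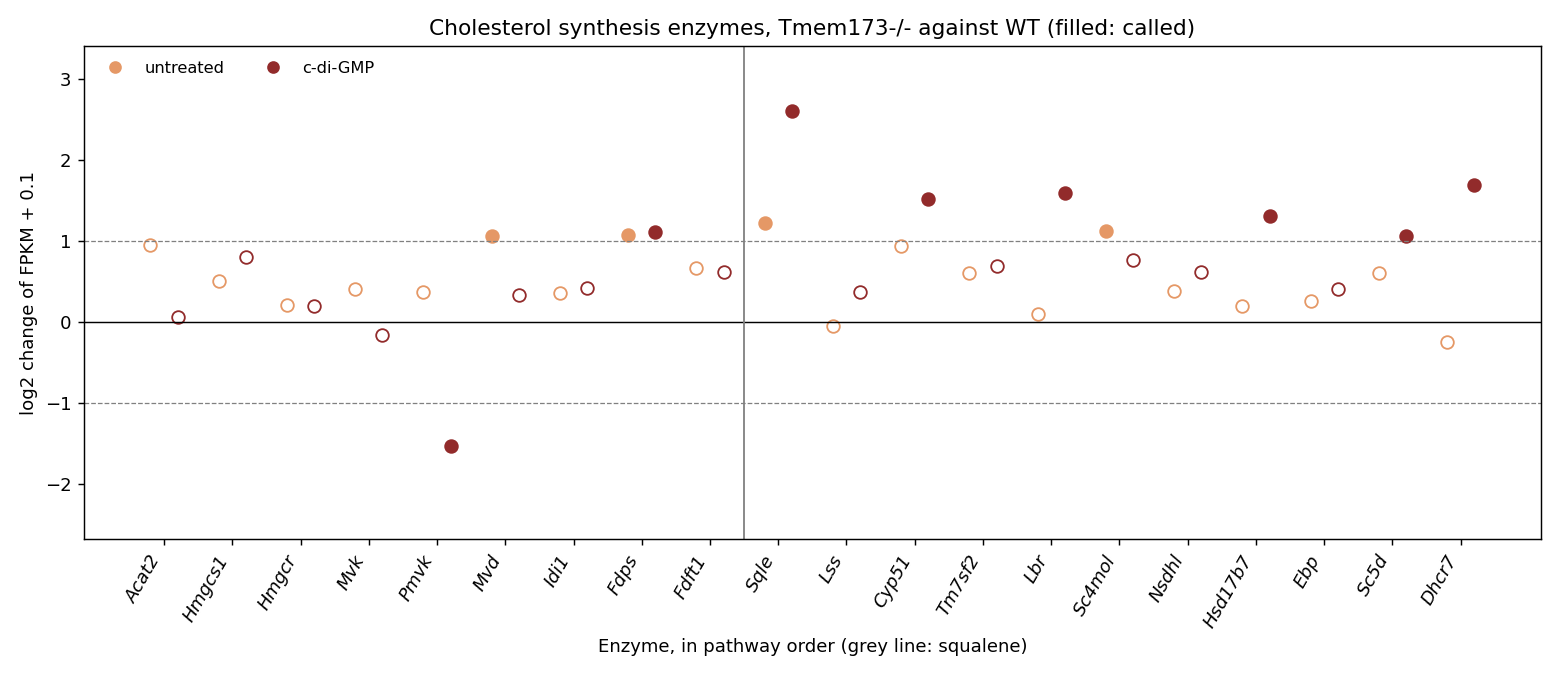
Log2 difference of FPKM + 0.1 between *Tmem173*-/- and wild-type BMDCs (vertical axis) for the 20 enzymes in pathway order, untreated (light) or treated with c-di-GMP (dark). Filled points were called, dashed lines mark 2-fold, and the grey line stands at squalene. *Sqle* stands at 1.22 untreated and 2.61 treated, and *Lbr* at 0.10 and 1.59.

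Of the 7 regulators of SREBP, none was called in any response, where 0.0092% to 10.5% of all genes were called in a direction. *Insig2* came near a call, from 6.61 to 12.4 FPKM in wild-type (log2 0.90) and from 6.88 to 13.2 FPKM in *Irf1*-/- BMDCs (0.93). The intervals were apart in both. *Srebf2* alone was called, higher in treated *Tmem173*-/- against wild-type BMDCs, where 12.9% of all genes were. The 6 genes of the oxysterol pathway included 4 that were tested in the wild-type response. *Ch25h* was the only one of them called there, where 10.5% of all genes were called higher. *Cyp7b1*, the enzyme that converts 25-hydroxycholesterol further, was listed at 0 FPKM in both wild-type conditions. *Gpr183*, the receptor of the dihydroxylated product, was at 6.23 and 4.74 FPKM in wild-type (log2 -0.39) and was called higher in the *Irf3/7*-/- response (1.27, from 3.72 to 9.11 FPKM). *Hsd3b7* (-1.02) and *Cyp27a1* (1.68), oxysterol-metabolizing enzymes, were called lower and higher in *Tmem173*-/- than in wild-type BMDCs after treatment, and *Cyp27a1* was also called higher without it (1.31). The *Hsd3b7* change was close to the threshold. *Cyp27a1* was low, at 1.73 against 0.473 FPKM treated and 2.09 against 0.780 FPKM untreated, so the size of its differences depends on the pseudocount.

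Of 8 uptake and transport genes, 7 were tested in the wild-type response and 1 was called higher, where 10.5% of all genes were. It was *Npc2*, the lysosomal cholesterol carrier, which rose from 179 to 787 FPKM (log2 2.14). *Npc2* rose in *Irf1*-/- (2.15) and *Irf3/7*-/- (1.69) BMDCs as well. In treated *Tmem173*-/- against wild-type BMDCs *Lipa* (2.22), the lysosomal acid lipase, *Stard4* (2.05), a sterol carrier, and *Scarb1* (1.59), the HDL receptor, were called higher and *Npc2* lower (-2.62). In that comparison 12.9% of all genes were called higher and 13.5% lower. *Lipa* was already called higher without treatment (1.82). *Lipa* was also higher in treated *Irf3/7*-/- BMDCs (1.13). Of 7 LXR-related genes, 1 was called higher in the wild-type response, beside 10.5% of all genes. It was *Nr1h3*, which encodes the oxysterol receptor LXRα, from 1.88 to 6.85 FPKM (1.81). *Nr1h3* was called lower than treated wild-type in treated *Tmem173*-/- (-1.67) and *Irf3/7*-/- (-1.33) BMDCs. *Apoe* was called higher in treated *Irf3/7*-/- BMDCs (1.31), and was already called higher in the untreated ones (1.12, 13.6 against 6.21 FPKM). None of 6 genes of the isoprenoid branch was called in any comparison, where 0.0092% to 13.5% of all genes were called in a direction.

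Fatty acid synthesis, the arm driven mainly by SREBP1, was read from 10 genes. In the wild-type response 5 of the 10 were called lower and none higher, where 9.96% and 10.5% of all genes were. The median log2 change of the 10 was -1.02. *Scd1* (-2.68) and *Scd2* (-2.52), the stearoyl-CoA desaturases, *Fads2* (-1.63) and *Fads1* (-1.14), desaturases of polyunsaturated fatty acids, and *Fasn* (-1.57), the fatty acid synthase, were those called. In *Irf1*-/- BMDCs 4 were called lower, beside 7.81% of all genes. In *Irf3/7*-/- BMDCs 3 were called lower and *Acss2* (1.14) higher, beside 7.68% and 10.2% of all genes. In treated *Tmem173*-/- against wild-type BMDCs 8 of the 10 were called higher, where 12.9% of all genes were. They were the 5 called lower in the wild-type response, with *Scd1* at 2.19, *Scd2* at 2.36, *Fads1* at 2.19, *Fads2* at 2.45 and *Fasn* at 1.55, and *Elovl6* (1.90), *Acss2* (1.44) and *Acaca* (1.07). Of these, *Acss2* (1.72) and *Fads1* (1.07) were already called higher without treatment. *Acss2* was also called higher in treated *Irf3/7*-/- BMDCs (1.51). *Srebf1* itself was at 18.0 and 15.6 FPKM in untreated and treated wild-type BMDCs (-0.21).

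Genes of cell division and markers of several cell types also differed in these comparisons. Of 8 cell cycle genes, 6 were called lower in the wild-type response (median log2 -1.64), 6 in *Irf1*-/- (-1.50) and 4 in *Irf3/7*-/- BMDCs (-0.96), and none in *Tmem173*-/- BMDCs. The shares of all genes called lower were 9.96%, 7.81%, 7.68% and 0.0092%. In wild-type BMDCs the 6 were *Ccnb1*, *Ccna2*, *Top2a*, *Rrm2*, *Cdk1* and *Mcm5*. Each of these 6 was called higher in *Tmem173*-/- than in wild-type BMDCs after treatment, at log2 1.39 to 2.26, where 12.9% of all genes were. All 7 interferon-stimulated genes read, *Isg15*, *Ifit1*, *Mx1*, *Rsad2*, *Oas2*, *Irf7* and *Usp18*, were called higher in wild-type, *Irf1*-/- and *Irf3/7*-/- BMDCs, and none in *Tmem173*-/- BMDCs. The shares of all genes called higher were 10.5%, 9.67%, 10.2% and 0.046%. After treatment all 7 interferon-stimulated genes were lower in *Tmem173*-/- than in wild-type BMDCs, *Rsad2* (-1.78) was lower in *Irf1*-/-, and *Rsad2* (-1.27) and *Irf7* (-7.08) were lower in *Irf3/7*-/- BMDCs. Without treatment 6 of the 7 were already called lower in *Tmem173*-/- (median log2 -2.385), 4 in *Irf1*-/- (-1.28) and 3 in *Irf3/7*-/- BMDCs (-0.84). The shares of all genes called lower there were 5.95%, 3.52% and 0.863%. *Irf7* is itself a gene targeted in *Irf3/7*-/- mice. Its level in these cells, 1.07 FPKM untreated and 4.97 FPKM treated, is therefore no reading of their interferon response. The dendritic cell markers were present in every condition, none of 6 at 0, with a summed level of 4471.7 to 7282.5 FPKM, although *H2-Ab1*, an MHC class II gene, was lower in treated *Irf1*-/- than in treated wild-type BMDCs (-1.43). The 5 neutrophil markers summed to 19490.4 and 14154.5 FPKM in untreated and treated *Tmem173*-/- BMDCs and to between 1399.8 and 3980.7 FPKM elsewhere, none at 0. Of the *Tmem173*-/- sums, *S100a8* alone was 10351 and 7513 FPKM, and *S100a9* was 8336 and 5974 FPKM. The listed FPKM of *S100a8* lay above its own upper bound, so these sums are uncertain. The macrophage marker *Csf1r* was higher in treated *Tmem173*-/- than wild-type BMDCs (2.07), but *Mertk* was lower (-2.15). The median over the 5 macrophage markers was 0.18. The 5 macrophage markers summed to 446.7 and 425.9 FPKM in untreated and treated *Tmem173*-/- and 153.4 to 272.6 FPKM in the other BMDCs, none at 0. Of the *Tmem173*-/- sums, *Csf1r* alone was 194 and 204 FPKM, beside 54.3 and 48.6 FPKM in untreated and treated wild-type BMDCs. The 5 T and NK cell markers found in the table summed to 2.57 and 2.01 FPKM in *Tmem173*-/-, with *Gzma* at 0 in both and *Ncr1* in the untreated, to 11.7 and 13.2 FPKM in *Irf1*-/-, with *Ncr1* at 0 in both, and to 384 to 1114 FPKM in wild-type and *Irf3/7*-/- BMDCs. The 4 basophil and mast cell markers, none at 0, summed to 91.7 and 140.4 FPKM in *Irf3/7*-/- and 33.8 to 53.0 FPKM in the other BMDCs, and the 3 B cell markers to 3.20 to 9.01 FPKM in all, none at 0. Their part in the differences of the 8 genes was not tested, and a different share of cells cannot be told apart from a different level of RNA per cell.

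Single markers behaved as follows. *Ccr7* (2.25), the homing receptor of mature dendritic cells, and the macrophage genes *Mertk* (1.77) and *Fcgr1* (1.15) rose in the wild-type response, and the neutrophil gene *S100a9* (-1.07) fell. After treatment, *Tmem173*-/- BMDCs had more *S100a9* (3.22), *Ngp* (2.57), *Mpo* (2.41) and *Itgax* (1.29), more *Cd79a* (3.26) and *Ms4a1* (3.97), and less *Ccr7* (-3.46) and *Mertk* (-2.15) than wild-type BMDCs. *S100a8*, the other neutrophil gene past the thresholds in both comparisons (-1.20 and 2.77), is given as values only, since its listed FPKM lay above its own upper bound in all 8 conditions, for example 2531 FPKM against a bound of 2169 FPKM in untreated wild-type BMDCs. *Irf1*-/- BMDCs had more *Mpo* (2.08) and less *Mertk* (-1.78) and *Ngp* (-1.28), and *Irf3/7*-/- BMDCs had more *Mpo* (2.20), *Cd79a* (2.70) and *Flt3* (1.17) and less *Ngp* (-1.07). In treated wild-type BMDCs *Cd79a* and *Ms4a1* were near or below the pseudocount, at 0.123 and 0.0102 FPKM, so the size of their differences depends on it. *Cd79b*, the other B cell marker, was at 3.07 FPKM there. It was at 3.21 FPKM in treated *Tmem173*-/- and 4.22 FPKM in treated *Irf3/7*-/- BMDCs, and was not called. *Cd3e*, *Cd3g*, *Gzma* and *Nkg7* were called lower than treated wild-type in treated *Tmem173*-/- and *Irf1*-/- BMDCs and higher in treated *Irf3/7*-/- BMDCs, the last by log2 1.45 to 2.09. *Mcpt8* (1.59), *Ms4a2* (1.66), *Cpa3* (1.69) and *Fcer1a*, the basophil and mast cell genes, were also higher in treated *Irf3/7*-/- BMDCs.

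The targeted genes were read as a check of the labels. *Tmem173* was at 8.97 and 7.49 FPKM in untreated and treated *Tmem173*-/- BMDCs and between 77.0 and 118 FPKM in the others. *Irf7* was at 1.07 and 4.97 FPKM in *Irf3/7*-/- BMDCs and at 15.2 and 687 FPKM in wild-type BMDCs. *Irf1* was at 25.9 and 116 FPKM in *Irf1*-/- and 149 and 245 FPKM in wild-type BMDCs, and *Irf3* was at 7.74 and 20.2 FPKM in *Irf3/7*-/- and 19.9 and 15.8 FPKM in wild-type BMDCs. *Irf3* in treated cells of the library labelled *Irf3/7*-/- was thus not below wild-type. In untreated and treated *Tmem173*-/- BMDCs *Irf1* was at 24.1 and 23.3 FPKM and *Irf7* at 3.17 and 3.37 FPKM. A low level of *Irf1* or *Irf7* was thus not particular to its own knockout. The FPKM counts the whole gene, and reads from parts outside a deletion were not separated.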

How the data were processed

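RNA-seq was carried out on 16 samples of mouse BMDCs, sequenced as 35-bp paired-end reads from stranded mRNA libraries according to the methods of the study. The authors deposited FPKM values from Cuffdiff, in which the 2 replicates of a condition had been merged, with interval bounds and a status for 23356 genes. The submitters' processing notes name Cuffdiff 1.06 and the build mm9; the loci in the table overlap GRCm38 genes instead (21454 of 21681), so coordinates are given as GRCm38. The aligner is not given in the sources used here. A further 3 value columns, of another knockout, were not used.

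Values were transformed as log2(FPKM + 0.1), and 10 comparisons were made. A call needed a fold change above 2, non-overlapping intervals of the authors, at least 1 FPKM in 1 condition and the status OK in both. The fit of a model, an SD and a p-value could not be had from 1 value a condition. Depth per sample cannot be read from FPKM, and the authors' intervals give the precision. The table columns named TM173 were read as *Tmem173*-/-, with the suffix GDP as treated. The listed value lay outside its own interval in at least 1 condition for 193 genes, none of them among the 8. The calling of the wild-type response was tried on simulated data, with noise drawn from the authors' intervals and changes planted in genes with narrow intervals. Such data hold no spread between replicates, so they do not show how reliable the calls are. Named genes were the 8 genes, other listed genes or cell type markers called in the wild-type response or in a treated knockout against wild-type, the targeted genes, and the 5 genes most like *Ch25h* and *Hmgcs1*. Further genes, named for another comparison or to show a limit, were chosen after their values were seen. Some genes that the rule or the lists name are not reported here, and the list counts leave them out. The genes and lists were chosen with earlier results of these data known. *Sc4mol* is now *Msmo1*; *Trbc2* had no row of that name. Alternatives were other pseudocounts, filters, fold thresholds, centring, and calls by fold or interval alone. Python 3.11.15, numpy 2.4.6, pandas 2.3.3 and matplotlib 3.10.9 were used.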

Additional observations from a re-analysis of the deposited data

How the results depend on the processing

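No paired analysis was possible because the authors combined the replicates of each condition before deposition, and for the same reason no replicate could be left out. The counts of called genes among the 8 were within 1.5 times those reported in all 10 comparisons with a pseudocount of 0.01 FPKM, with no filter on low FPKM, with a minimum of 5 FPKM, with median centring and with the fold change alone. A pseudocount of 1 FPKM left 0 called in treated *Irf3/7*-/- against wild-type BMDCs, where *Sqle* was lost. Of all 11209 genes tested, 329 were then called higher and 207 lower. With a fold change above 1.5, and likewise with non-overlapping intervals alone, 2 were called in untreated *Tmem173*-/- against wild-type BMDCs, *Cyp51* being added. Of all 11101 genes tested, 765 were then called higher and 846 lower. With a fold change above 4, 1 remained in treated *Tmem173*-/- against wild-type BMDCs, *Sqle*, where 437 of 11318 genes were called higher and 737 lower. In each of the other 7 comparisons that had a call, 0 remained. Of the 11004 to 11209 genes tested in these, 19 to 420 were called higher and 17 to 279 lower. All 80 log2 changes stayed within the ratios allowed by the authors' intervals under the 2 other pseudocounts and median centring, and no called change reversed its sign. Centring moved the median of all genes by less than 0.1 on the log2 scale in every comparison. The intervals of the authors are the only error available, and they cannot be checked against replicates here.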
